A study of Homo sapiens with 12 samples.

Results

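The microRNA (miRNA) miR-574 was followed through both of its mature products, miR-574-5p and miR-574-3p, which are 2 of the 1636 mature miRNAs in a table of counts from extracellular vesicles. The 2 rows were chosen by name, with earlier results of these data known, so their levels and their arm ratio are given below as a description and no p-value is attached to them. Vesicles were collected from the culture medium of 6 established cell lines, SW1116, RCM-1, Car-1, HT55, MDST8 and Hutu80, each sequenced as 2 libraries, which makes 12. No treatment is given in the labels. Each line is a single culture model, and all are labelled CRC (colorectal cancer). The medium of all 6 was DMEM/F12, to which fetal bovine serum and penicillin/streptomycin were added. Hutu80 is known as a line from a tumour of the duodenum. The study set lines of consensus molecular subtype CMS2 against lines of CMS4, but no label used here ties a line to a subtype, so the 6 lines were described side by side. Total counts per library ran from 71831 to 622800. Nothing in the labels tells if replicate libraries stem from different cultures, so the spread and the p-values given may be technical.

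A miRNA is cut from a hairpin-shaped precursor, and either strand of the resulting duplex can be loaded into an Argonaute protein, where it lowers the output of messenger RNAs that pair with its seed. The strand from the left side of the hairpin is called 5p and the one from the right side 3p, and the balance between them is the arm ratio. miR-574-5p is known for more than seed pairing. It is rich in G and U, it can bind the RNA-binding protein CELF1 (CUGBP1) as a decoy, and as vesicle cargo it has been described as a ligand of the RNA-sensing Toll-like receptors TLR7 and TLR8. In colorectal cancer cells it has been reported to lower the RNA-binding protein QKI. The C- and A-rich 3p arm has been described as a decoy for another RNA-binding protein, hnRNP L.

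The sequences of the precursor and of both arms are shown because the results turn on the balance between the arms. They are those of RefSeq on GRCh38.p14, plus strand. In the hairpin the capitals mark the mature arms, and in the arms they mark the seed, bases 2 to 8.
hairpin MIR574, chr4:38868032-38868127: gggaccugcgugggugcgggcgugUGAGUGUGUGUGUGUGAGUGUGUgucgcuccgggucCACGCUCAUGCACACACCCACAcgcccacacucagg
hsa-miR-574-5p, chr4:38868056-38868078: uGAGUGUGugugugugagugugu
hsa-miR-574-3p, chr4:38868092-38868113: cACGCUCAugcacacacccaca

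The hairpin of 96 bases lies on the plus strand of chromosome 4 inside FAM114A1, a protein-coding gene on the same strand. In the GENCODE release 29 annotation it falls in intron 1 of 3 FAM114A1 transcripts and in no FAM114A1 exon, while the other 3 transcripts do not span it. Its start is 226 bases after the RefSeq start of FAM114A1. Only 2 other miRNA genes of the reference table start within 5 Mb, and of their products miR-4802-5p had a row in the count table. It was at 0 counts in all 12 libraries, which allows up to 3 counts among the 3141138 of the series.

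The arms are 23 and 22 bases long and 13 bases apart. A minimum free energy fold of the hairpin paired 20 bases of the 5p arm with the 3p arm, through 10 G-C, 7 A-U and 3 G-U pairs. Bases 4 to 15 of the 5p arm are an unbroken run of GU, and 91.3% of its bases are G or U, which ranks 4 among the 1470 table rows with a reference sequence. The 3p arm holds CACACA at bases 11 to 16, and 81.8% of its bases are C or A, which ranks 5. The repeats carried by the arms are rare among the measured miRNAs. GUGUGU, searched on the mature strand, stood in 13 of the 1470 sequences (0.884%) and CACACA in 8 (0.544%). No other row shared bases 2 to 8 with either arm. How the authors treated reads of such simple repeats that also match elsewhere in the genome is not given in the sources used here.

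Both arms had counts in every library, and 5p was the arm with more counts in all 12. In total 4198 counts were of the 5p arm and 444 of the 3p arm. At a mean of 1223 CPM (counts brought to a common library total and scaled by trimmed-mean factors, TMM) miR-574-5p ranked 74 of 1636 by level, and miR-574-3p, at 135 CPM, ranked 178. Levels below are TMM-scaled CPM, which is a share of the miRNA counts of a library. Fewer vesicles that carry a miRNA and fewer copies per vesicle cannot be told apart in such bulk libraries.

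The vesicles with the most miR-574-5p were those of SW1116. The 5p arm was at 3203 and 3136 CPM in SW1116, at 2019 and 1208 CPM in RCM-1, and at 1033 and 1345 CPM in Car-1. It was at 744 and 593 CPM in HT55, at 383 and 319 CPM in MDST8, and at 338 and 352 CPM in Hutu80. Both SW1116 libraries lay above all others, and the 4 libraries of MDST8 and Hutu80 lay below all others. The means were 3169 ± 46.8 CPM in SW1116 and 344.8 ± 9.59 CPM in Hutu80 (SD, n = 2 each), a ratio of 9.19. Between the mean log2 levels of these lines the span was 3.17. It ranked 96 among the 318 miRNAs above the filter on low counts, whose median span was 2.36.

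In the order of the 5p means, SW1116 and RCM-1 differed by 1555 CPM, more than the sum of their SDs (620 CPM), and the libraries of Car-1 and HT55, and of HT55 and MDST8, did not overlap. The neighbours RCM-1 and Car-1 overlapped (1614 ± 573.6 and 1189 ± 221 CPM), as did MDST8 and Hutu80 (351 ± 44.9 and 344.8 ± 9.59 CPM). The difference between the ends of the order rests in part on scaling, because the TMM factors were 0.722 and 0.642 in SW1116 but 1.28 and 1.19 in Hutu80. With library totals as the only scaling, SW1116 over Hutu80 was 2.35 on the log2 scale, against 3.20 with TMM. RCM-1 and Car-1 changed places, as did MDST8 and Hutu80. The lead of SW1116 also narrowed, to a mean of 2163 CPM against 1718 CPM in Car-1. By library, SW1116 was then at 2311 and 2015 CPM, and Car-1 replicate 2 at 1960 CPM.

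**Figure D1:**
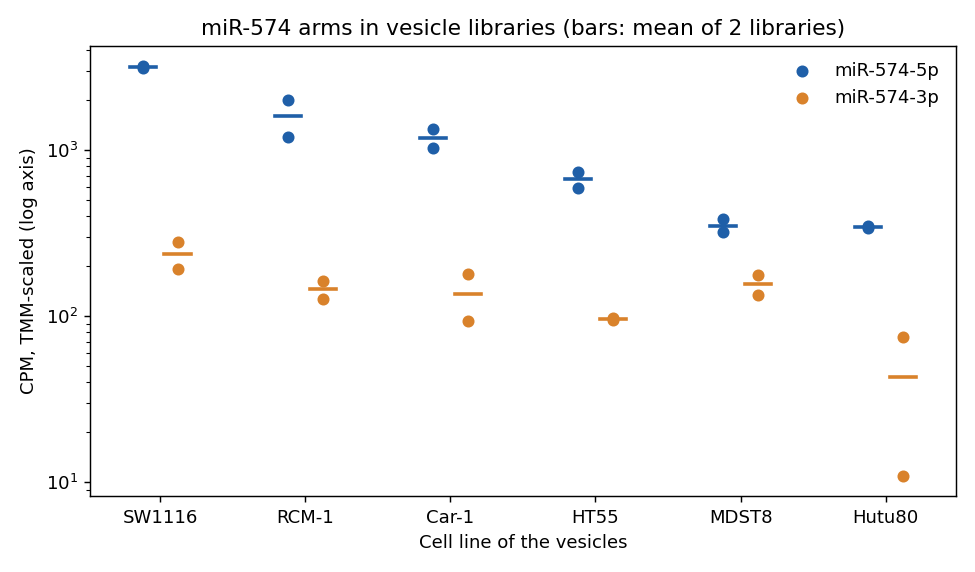
Level of miR-574-5p (blue) and miR-574-3p (orange) in TMM-scaled CPM on a log axis, by cell line in the order of the 5p mean. Points are libraries and bars are means of 2 libraries. The 5p means run from 3169 CPM in SW1116 to 344.8 CPM in Hutu80, while the 3p mean in MDST8 (156 CPM) stands above that in RCM-1, Car-1 and HT55.

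The 3p arm varied less clearly. It was at 194 and 278 CPM in SW1116, at 177 and 135 CPM in MDST8, and at 163 and 127 CPM in RCM-1. It was at 93.1 and 179 CPM in Car-1, at 95.2 and 97.3 CPM in HT55, and at 10.9 and 75.3 CPM in Hutu80. SW1116 was highest and Hutu80 lowest, and among the 4 lines between them each line's libraries overlapped those of the next in the order. The counts behind these values were low, from 1 count in Hutu80 replicate 1 and 9 in replicate 2 to 87 and 89 in SW1116.

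For the 3p arm, means ran from 236 ± 59.7 CPM in SW1116 to 43.1 ± 45.6 CPM in Hutu80 (SD, n = 2 each). The span of its mean log2 levels, 2.585, ranked 143 among the same 318 miRNAs, near their median of 2.36. Of the 5 neighbouring pairs of lines in this order, HT55 and Hutu80 were the pair that differed by more than the sum of their SDs (by 53.1 CPM, against 47.1 CPM). With library totals as the only scaling Car-1, not SW1116, had the highest 3p mean. Without Hutu80 replicate 2, SW1116 over Hutu80 was 4.74 on the log2 scale, against 2.45 with all libraries, because the remaining Hutu80 library held 1 count.

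The 5p arm took between 82.4% and 96.9% of miR-574 counts in the 10 libraries of SW1116, RCM-1, Car-1, HT55 and Hutu80, and a smaller share in MDST8. There it was 121 of 177 counts (68.4%, 95% Wilson interval 61.2% to 74.8%) in replicate 1 and 102 of 145 (70.3%, 62.5% to 77.2%) in replicate 2. Pooled over the libraries of a line, the share was 69.3% (64.0% to 74.0%) in MDST8, against 93.3% (92.3% to 94.2%) in SW1116, 91.4% (89.2% to 93.1%) in RCM-1 and 89.9% (87.2% to 92.1%) in Car-1. It was 88.0% (79.2% to 93.3%) in Hutu80 and 87.0% (82.2% to 90.6%) in HT55. The pooled MDST8 interval lay below those of the other 5 lines. By single library, the interval of Hutu80 replicate 2 (42 of 51 counts, 69.8% to 90.4%) overlapped both MDST8 intervals, and those of the other 9 libraries did not. These intervals cover counting error only.

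**Figure D2:**
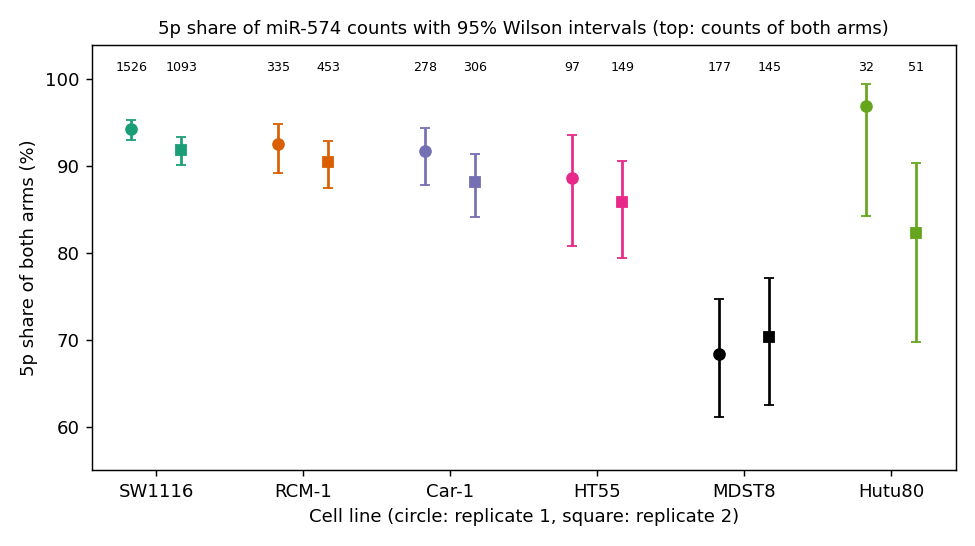
Share of miR-574 counts that belong to the 5p arm, in percent, with 95% Wilson intervals, by line and library (circle replicate 1, square replicate 2). Numbers at the top are the counts of both arms, and the axis starts above 0. The MDST8 libraries sit at 68.4% and 70.3%, below the points of the other 10 libraries, and the widest interval is that of Hutu80 replicate 2.

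On the log2 scale, with 0.5 added to each count, the ratio of 5p to 3p was 1.17 ± 0.09 in MDST8 (SD, n = 2). The other lines had 3.76 ± 0.39 in SW1116, 3.42 ± 0.26 in RCM-1, 3.28 ± 1.58 in Hutu80, 3.17 ± 0.39 in Car-1 and 2.75 ± 0.23 in HT55. The step to MDST8 from HT55, its neighbour in this order, was 1.57, more than the sum of their SDs (0.33). With 5 added to each count, Hutu80 (2.17) came below HT55 (2.43) and next to MDST8 (1.10), and the step was 1.06. Without Hutu80 replicate 1 it was Hutu80 again (2.16), with a step of 0.99. Neighbours among the other 5 lines overlapped. The wide spread of Hutu80 reflects ratios of 21.0 and 4.47 in its libraries, the first of them with a single 3p count. The ratio is formed within a library, so library scaling does not enter it.

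In MDST8, miR-574-5p was 1.58 lower on the log2 scale than the mean of the other 5 lines (8.48, against 10.06), whereas miR-574-3p was 0.49 higher (7.35, against 6.86). The 3p difference rests on Hutu80, with its 1 and 9 counts: against the other 4 lines without it, an alternative chosen after seeing the data, 3p was 0.10 higher in MDST8 (7.35, against 7.24), less than the SD of the MDST8 libraries (0.27), and 5p was 1.98 lower (8.48, against 10.46). For the difference between MDST8 and the mean of all 5 other lines, the median of all 318 tested miRNAs was -0.30. In Hutu80, the other line with little 5p, both arms were low, 5p by 1.61 and 3p by 1.94 (median of all tested 0.05). SW1116 was high for both, 5p by 2.20 and 3p by 1.16 (median -0.22).

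**Figure D3:**
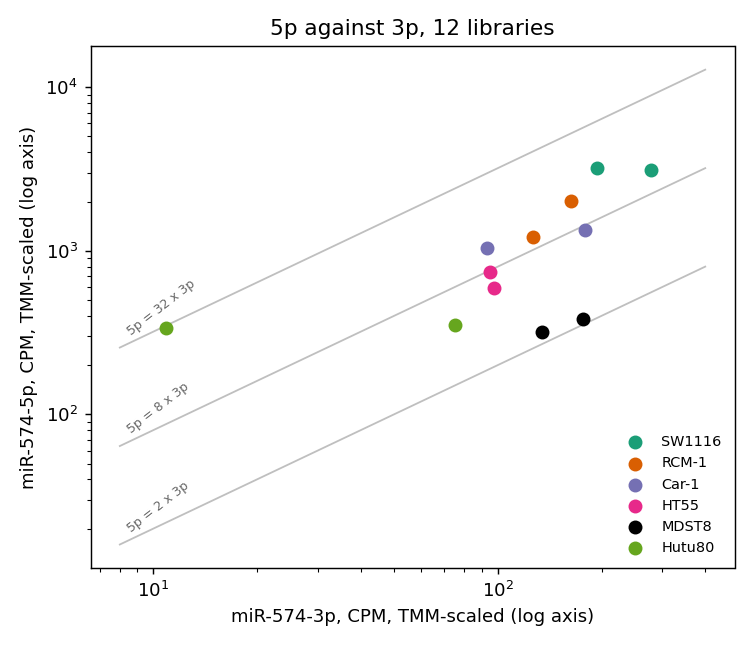
Level of miR-574-5p against miR-574-3p in the 12 libraries, TMM-scaled CPM on log axes, coloured by line, with grey lines where 5p is 2, 8 and 32 times 3p. The MDST8 libraries (black) lie near the line for 2 times, apart from libraries with the same 3p level, and Hutu80 replicate 1, with 1 count of 3p, lies at the left.

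Across the 12 libraries the log2 levels of the arms had a Pearson r of 0.61 and a Spearman rho of 0.67. Without the MDST8 libraries, chosen after their values were seen, r was 0.84 and rho 0.93. Without those of Hutu80, r was 0.55 and rho 0.56. These are descriptions: the points share lines, and both arms share the scaling of their library.

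The arm ratio of miR-574 was then set beside that of other hairpins. Of the 421 hairpins with both arms in the table, 58 had both arms above the filter on low counts. Over these, the line means of the log2 ratio spanned a median of 2.31, and miR-574 ranked 21 with a span of 2.59. Its spread within lines (pooled SD 0.70) was near the median of 0.80. In edgeR's quasi-likelihood test of the arm term among lines, 17 of the 58 hairpins (29.3%) had an adjusted p below 0.05. This count fell with any library left out, to 8 to 13 of 73 to 83 hairpins. It moved by over 1.5 times without Hutu80 replicate 2 (8 of 78) or 1 (10 of 79), HT55 replicate 1 or RCM-1 replicate 1 (10 of 83 each) or SW1116 replicate 2 (11 of 76).

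The widest spans belonged to miR-30d (8.71, adjusted p = 6.7e-05 in edgeR), miR-365a (8.20, adjusted p = 0.003) and miR-92b (5.995, adjusted p = 0.00072), and the narrowest to miR-126 (0.71), miR-151a (0.77) and miR-28 (0.86). The hairpins next above miR-574 in this order were miR-18a, miR-93 and miR-339 (2.65 to 2.79), and those next below were miR-3180, miR-23b and miR-222 (2.52 to 2.57), none of which passed the test (adjusted p = 0.0909 to 0.82 in edgeR). A span as wide as that of miR-574 or wider was thus seen in 21 of the 58 hairpins. The span alone did not set the call, since some hairpins with narrower spans passed. Examples, named after their values were seen, were miR-194 (2.43, adjusted p = 0.0165 in edgeR) and miR-9 (2.34, adjusted p = 0.041 in edgeR). In 44 of the 58 hairpins the scarcer arm had under 500 counts in all, as the 3p arm of miR-574 did.

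MDST8 did not have low 5p shares in general. For the 57 other hairpins the median difference between MDST8 and the mean of the other 5 lines was 0.03 on the log2 scale. For miR-574 it was -2.10 (1.17 in MDST8, against a mean of 3.28), and 4 of the 58 hairpins had a lower value. These, named after their values were seen, were miR-365a (-2.99), miR-365b (-2.36), miR-27b (-2.33) and miR-193b (-2.31). miR-365a and miR-365b had the same 319 counts of the 3p arm, so they are not separate measurements of it. The lowest ratio among lines fell in MDST8 for 12 of the 58 hairpins, and the highest for 15.

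**Figure D4:**
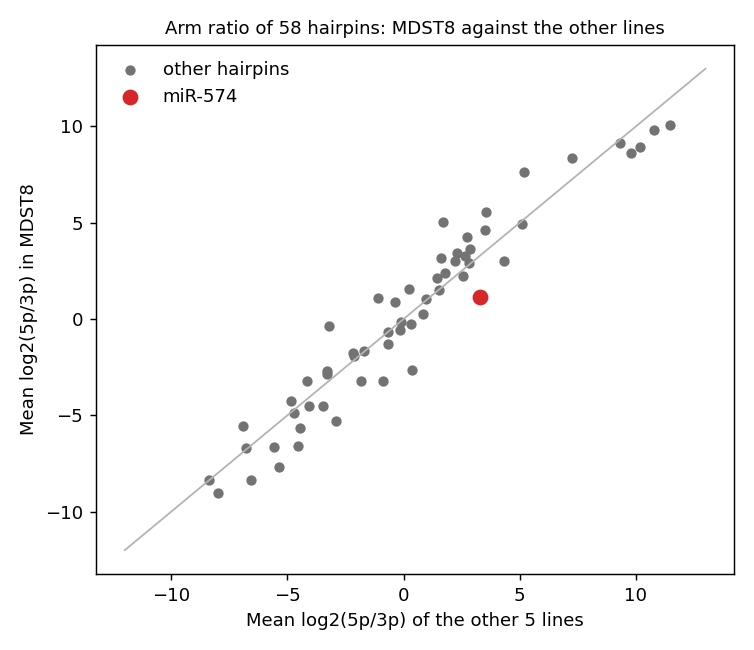
Mean log2 ratio of 5p to 3p in MDST8 (vertical) against the mean of the other 5 lines (horizontal) for the 58 hairpins, with the line of equality. miR-574 (red) lies 2.10 below the line, and 4 hairpins lie farther below it.

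The miRNAs whose levels went most like those of each arm were named by Pearson r of log2 CPM over the 12 libraries, out of 317. For miR-574-5p they were miR-7-5p, a miRNA of endocrine and neural cells (r = 0.82, rho = 0.76), miR-28-5p (0.81, 0.79), miR-338-5p (0.81, 0.78), miR-335-3p (0.80, 0.84) and let-7b-5p, a let-7 family member that represses growth genes (0.80, 0.71). miR-28-5p was at 457 ± 45.8 CPM in SW1116 and 81.7 ± 38.4 CPM in Hutu80, and let-7b-5p at 131000 ± 23780 CPM in SW1116 and 17080 ± 365 CPM in MDST8. The other arm of the same hairpin ranked 32.

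For miR-574-3p the most alike were miR-28-5p (r = 0.85, rho = 0.74), miR-1304-5p (0.85, 0.38), miR-10a-3p, from the HOXB cluster (0.74, 0.72), miR-28-3p (0.73, 0.72) and miR-185-5p (0.70, 0.73). miR-574-5p ranked 14. For miR-1304-5p, with 186 counts in all, rho was far below r. miR-28-5p was on both lists, and its own hairpin had one of the narrowest spans of arm ratio. These values describe likeness over 12 libraries of 6 lines that share scaling, and the sparse 3p counts limit the second list.

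**Figure D5:**
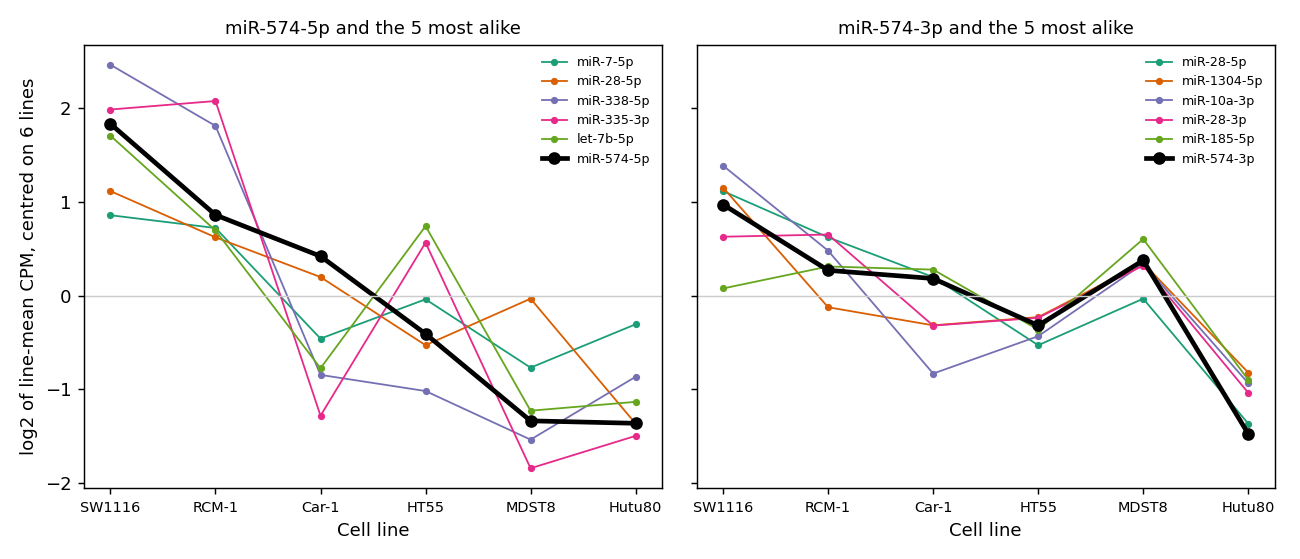
Line means of TMM-scaled CPM on the log2 scale, centred on the 6 lines, for miR-574-5p (left, black) and miR-574-3p (right, black), each with the 5 miRNAs of highest Pearson r over the 12 libraries. The 5p curve has its lowest values in MDST8 and Hutu80, and the 3p curve has a second high point in MDST8.

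Other miRNAs described as ligands of TLR7 or TLR8 gave a varied picture across the lines. Of a list of 10, 8 had rows in the table and 7 were tested, and 5 of these changed among the 6 lines in edgeR's quasi-likelihood F-test at an adjusted p below 0.05. Over all miRNAs, 217 of 318 did so (68.2%), so the share of the list is near the background. The test has no direction. The median span between the highest and lowest line was 2.93 on the log2 scale for the 7, against 2.36 for all tested miRNAs, and miR-574-5p, which is not in the list, had a span of 3.17.

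miR-21-5p, the most abundant of the list and a miRNA raised in many tumours, was at 181300 ± 48970 CPM in MDST8 and 43400 ± 3994 CPM in HT55 (adjusted p = 2.2e-05 in edgeR). miR-146a-5p, induced by NF-kB, was at 28750 ± 639 CPM in MDST8 and 1189 ± 559 CPM in SW1116 (adjusted p = 1.2e-12 in edgeR). miR-29a-3p, which targets collagen messenger RNAs, was at 16460 ± 82.3 CPM in MDST8 and 1155 ± 47.2 CPM in Hutu80 (adjusted p = 1.4e-10 in edgeR). The p53-induced miR-34a-5p was also highest in MDST8, at 2703 ± 759 CPM, and lowest in RCM-1, at 178 ± 11.5 CPM (adjusted p = 9e-09 in edgeR). These 4 were highest in MDST8, where miR-574-5p was among the lowest, while let-7b-5p was highest in SW1116, as miR-574-5p was (adjusted p = 9e-09 in edgeR). miR-122-5p and miR-142-3p were tested and did not pass (adjusted p = 0.14 and 0.35 in edgeR), although miR-122-5p did with library totals as the only scaling.

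Few of the miRNAs that share a repeat with a miR-574 arm were measurable. They are shown with the repeat in capitals, each being the member of its group that passed the filter on low counts.
hsa-miR-1180-3p, chr17:19344513-19344534, minus strand: uuuccggcucgcguggGUGUGU
hsa-miR-342-3p, chr14:100109715-100109737, plus strand: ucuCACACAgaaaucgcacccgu

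Of the 12 other rows with GUGUGU, miR-1180-3p was tested. It was at 586 ± 119 CPM in Hutu80 and 239 ± 11.5 CPM in MDST8 and did not pass (adjusted p = 0.0747 in edgeR, and 0.0088 with library totals as the only scaling). Of the 7 other rows with CACACA, 6 were at 0 counts throughout. The remaining one, miR-342-3p, was at 405 ± 28.4 CPM in Hutu80 and 64.8 ± 34.2 CPM in SW1116 (adjusted p = 0.0004 in edgeR), the opposite ends from those of miR-574-3p. The 12 and 7 rows summed to 242 to 631 CPM and to 64.8 to 405 CPM by line, so miR-574-5p alone exceeded the summed GU-repeat rows in SW1116, RCM-1, Car-1, HT55 and MDST8, and not in Hutu80 (344.8 CPM, against 631 CPM).

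Markers of tissue were read beside these levels. All 8 gut epithelial markers (the miR-200 family, miR-192-5p, miR-194-5p and miR-215-5p) had counts in every library, and their summed level was 5710 CPM in MDST8 and 11310 CPM in Hutu80, against 37240 CPM in Car-1, 120000 CPM in SW1116, 123100 CPM in RCM-1 and 142100 CPM in HT55. All 8 passed the test across lines, as did 217 of all 318 tested miRNAs (68.2%). That share is the background for each count of calls in these marker lists. The lines with the least miR-574-5p, MDST8 and Hutu80, were also the lowest for these markers, and the part of this in the result was not tested. Among the other lines the orders differed: HT55, with the highest marker sum, had less miR-574-5p (669 CPM) than Car-1 (1189 CPM), whose marker sum was lower. The 7 markers of blood cells and serum summed to between 1974 CPM in MDST8 and 5681 CPM in HT55, and to 2015 CPM in SW1116, where miR-574-5p was highest. Of the 6 tested, 1 passed across lines, miR-486-5p, a red-cell miRNA, at 4413 ± 454 CPM in HT55 and 1318 ± 230 CPM in MDST8 (adjusted p = 5.1e-05 in edgeR). With library totals as the only scaling miR-122-5p, miR-223-3p and miR-451a passed too (adjusted p = 0.0413, 0.00079 and 0.0016 in edgeR). miR-223-3p, at 0.0525 in the TMM-scaled test, also passed in limma-voom (0.032) and without Car-1 replicate 1 (0.045), MDST8 replicate 1 (0.0402) or SW1116 replicate 1 (0.0104). The medium held serum, and its part in the miR-574 counts was not tested. Of 7 stromal and muscle markers, 5 were too low to test, and the list summed to 319 to 784 CPM by line. The 2 tested, miR-1-3p and miR-143-3p, both passed. However, the call of miR-143-3p (adjusted p = 0.035 in edgeR) ended with no filter (0.20) and with a filter of 10 CPM in 2 libraries (0.0985). That call also ended in most fits with a library left out.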

How the data were processed

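Small RNA of vesicles isolated by ultrafiltration and size-exclusion chromatography was sequenced with IsoSeek, a low-input protocol with unique molecular identifiers, per the labels' protocols. The authors deposited whole-number counts of 1636 mature miRNAs in 12 libraries, not normalised. The submitters' processing notes name hg38 as the build. The read aligner, the miRNA release, and any collapsing of identifiers are not given in the sources used. Without collapsing, counts are not independent molecules. The second deposited table holds log2 values that equal log2(CPM + 1) of the counts within 5.0e-14 over 19632 cells, and it was not analysed further.

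The members and lists were chosen with earlier results of these data known. Libraries were grouped by line from the labels. Counts were filtered with filterByExpr (318 miRNAs, 99.7% of counts), scaled by TMM factors (0.642 to 1.46) and tested across lines with edgeR 4.0.16 (glmQLFit robust, glmQLFTest, Benjamini-Hochberg, threshold 0.05). Log2 levels had a prior count of 2. Arm ratios were tested in edgeR on the counts of both arms with a term per library. Alternatives used limma 3.58.1 and DESeq2 1.42.0. RNAfold 2.7.2 folded the hairpin. The libraries of a line differed by more than sampling noise (chi-square per degree of freedom 8.10 to 51.2), so none was counted as a duplicate deposit, which does not show that they came from separate cultures. The text names both arms, the 5 miRNAs most like each arm and up to 6 tested members per list by mean CPM. Named too are the hairpins at the ends and beside miR-574 in the order of arm-ratio span, and miR-4802-5p, within 5 Mb. In addition, miR-215-5p is named to define the list of gut epithelial markers. Any other is said to have been chosen later.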

Additional observations from a re-analysis of the deposited data

How the results depend on the processing

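The count of miRNAs called across lines, 217 of 318 tested, was 204 to 258 in the other 8 settings. The share called was less stable than the count, since the number tested moved with the filter. With no filter 246 of 1223 were called, and with a filter of 10 CPM in 2 libraries 258 of 582. The count of hairpins called for arm ratio, 17, was 14 with limma or with both arms at 50 counts or more, and 8 to 13, of 73 to 83 tested, with a library left out. A left-out library leaves its line with 1, which is assumed to vary like the rest and loosens the filter on low counts. The correlation of deviations between libraries of the same replicate number was -0.228 to 0.266 over 15 pairs of lines, 5 of them over 0.1. These values do not settle if the replicate numbers pair the libraries, and the main tests had no replicate block. With a replicate block 223 miRNAs and 18 hairpins were called, and miR-223-3p passed (0.034).

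The log2 difference of miR-574-5p between SW1116 and Hutu80, 3.20, was 3.28 with RLE size factors, 2.35 with library totals only and 3.45 without the 10 most abundant miRNAs, and 3.28 to 3.64 with a library left out. These moves exceed the replicate spread of 0.045, which is small in these lines. For miR-574-3p it was 2.45, and 1.99 to 4.74 with a library left out. The arm ratio of SW1116 minus MDST8, 2.59, was 2.59 with no pseudocount and 2.597 with 5 added, and 2.32 to 2.87 with a library left out. The ratio in Hutu80, 3.28, was less stable: 3.59 with no pseudocount and 2.17 with 5 added. MDST8 had the lowest ratio of the 6 lines in all of these settings. Depth limits the 3p arm most, since a single count was worth 13.9 CPM in the shallowest library and 1.61 CPM in the deepest.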
